A study of Mus musculus with 7 samples.

Results

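Pyruvate dehydrogenase, its kinases and phosphatases and the mitochondrial pyruvate carrier were followed in newborn mouse liver. The genes are Pdha1, Pdhb, Pdk1, Pdk2, Pdk3, Pdk4, Pdp1, Pdp2, Mpc1 and Mpc2. Probe sets, the groups of short probes that report a transcript on an Affymetrix Mouse Genome 430 2.0 array, were taken where the platform annotation gave 1 of these 10 symbols and no other. This found 15 probe sets of 9 genes among 45037 that are not array controls, and none for Mpc2, which is not described further. The groups were 3 wild type livers and 4 from glycerol kinase knockout mice, 1 array each, all of male C57BL/6J pups on day of life 1. Wild type pups were age-matched littermates of knockout pups, each liver was extracted on its own, and no treatment is named in either group. Glycerol kinase makes glycerol 3-phosphate from glycerol. Knockout pups show no outward sign of the deficiency at this age, per the series' design text, so the comparison addresses transcripts before overt disease. The loss of the enzyme is not limited to 1 cell type by anything in the labels, and values of the gene targeted in these mice are not given here.

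Pyruvate dehydrogenase is the mitochondrial complex that turns pyruvate into acetyl-CoA and so commits carbon from glucose, lactate and alanine to oxidation or fat synthesis. Kinases encoded by Pdk1 to Pdk4 switch it off by phosphorylating serines of the E1 alpha subunit, and phosphatases encoded by Pdp1 and Pdp2 switch it on again. Liver is known to lower the activity of the complex in fasting and in suckling, when fatty acids are burned and pyruvate is spared for glucose synthesis. None of the values below measures that activity or the phosphorylation.

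Intensities, linear and not logged, had been scaled to a common mean by the submitters, and fold changes are differences of log2(intensity + 16), knockout minus wild type, with standard errors from limma. A probe set was called when limma's p, after Benjamini-Hochberg adjustment over the 22518 probe sets tested, was under 0.05. Under that rule 4.24% of all tested probe sets were called, 529 (2.35%) higher and 426 (1.89%) lower in knockout, and with arrays scaled to equal medians 541 higher and 218 lower. Leaving out wild type 3 gave 127 calls, wild type 2 gave 288 and wild type 1 gave 341. Leaving out knockout 4 gave 375 and knockout 2 gave 514. Array medians lay between 92.5 and 108, and knockout 3 had the highest ratio of 3' to 5' control signal for all 4 control transcripts, for example 11.1 against 7.22 to 8.24 in the other arrays for the transferrin receptor. Knockout 3 also stood apart in 2 of the 3 measured exocrine pancreas markers, Cpa1 at 497.9 against 5.8 to 17.8 in the other livers and Prss2, of the multigene trypsin family, at 569 against 10.8 to 47.2. Without it 930 probe sets were called, and values without it are given for the kinases Pdk1 and Pdk3 below.

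The kinase transcript Pdk1 fell in knockout liver by 1 of its 4 probe sets, at 49.2% of wild type by the fitted fold change, and no other probe set of the 14 tested was called. Pdk3 was lower in every knockout liver than in every wild type liver but was not called. Pdk4, the kinase best known for its rise in fasting, was not called and varied widely between knockout livers. Probe sets of the E1 subunits, of Pdp2 and of the carrier subunit Mpc1 had small differences upward, with 1 exception for Pdhb, and none was called.

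The upstream sequences of Pdk1 and Pdk3 are shown because these are the kinases whose livers separated by genotype. Each is the 250 bases before a transcript start in RefSeq (build GRCm38.p6), 5' to 3' on the gene's strand, and capitals mark the core letters of the hypoxia response element, ACGTG or GCGTG, on either strand. Pdk1 lies on chromosome 2 (chr2:71872974-71873223, plus strand, the more upstream of 2 listed starts) and Pdk3 on chromosome X (chrX:93832151-93832400, minus strand).
Pdk1: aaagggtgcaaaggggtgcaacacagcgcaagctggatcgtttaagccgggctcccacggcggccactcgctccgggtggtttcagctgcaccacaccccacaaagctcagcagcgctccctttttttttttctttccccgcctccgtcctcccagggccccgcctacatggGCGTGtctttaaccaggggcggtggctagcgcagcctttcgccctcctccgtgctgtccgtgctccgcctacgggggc
Pdk3: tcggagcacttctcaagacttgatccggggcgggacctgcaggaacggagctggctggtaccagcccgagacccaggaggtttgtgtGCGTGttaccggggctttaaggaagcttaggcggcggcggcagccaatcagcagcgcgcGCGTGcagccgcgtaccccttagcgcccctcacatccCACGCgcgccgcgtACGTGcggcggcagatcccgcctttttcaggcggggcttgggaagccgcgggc
The window of Pdk1 holds GCGTG 1 time, beginning 78 bases before the start. In the window of Pdk3, GCGTG occurs 3 times and ACGTG 1 time, the latter 53 bases before the start. At least 1 of these cores is present in 38.6% of all 32851 RefSeq windows of this length, so the letters are common. The second start of Pdk1 has neither. Every other gene of the set with a window also has at least 1 core at 1 of its starts. Among them are Pdk2, Pdk4, Pdp2 and Pdha1, the last with GCGTG 3 times, so the cores do not set Pdk1 and Pdk3 apart. This counts genes at any of their starts, whereas the 38.6% counts windows. By window, only the second start of Pdk1, 1 start of Pdk2 and the second start of Mpc1 lacked a core. The nuclear receptor core AGGTCA was in 14% of all windows and in 1 of the 12 windows found for 9 of the genes, at the second start of Mpc1. The forkhead core GTAAACA, in 3.17% of all windows, was in none of the 12. These are matches of letters and do not show binding.

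Pdk1 encodes a kinase that is a textbook target of the hypoxia-inducible factor HIF-1. By the probe set 1423747_a_at, of a kind that matches several transcripts of 1 gene, the wild type livers had intensities of 1705.2, 1803 and 1724.5, and the knockout livers 742.7, 838.9, 1000.7 and 834.3. Every knockout liver was below every wild type liver, and the highest knockout value, in knockout 3, was still well under the lowest wild type value. The means were 1744 ± 51.8 and 854 ± 107 (SD, n = 3 and 4), a log2 fold change of -1.02 ± 0.14 (limma adjusted p = 0.0066). Of all tested probe sets 0.99% had a lower fold change. The call held without each array in turn, at log2 fold changes from -1.10 to -0.96, with the highest adjusted p, 0.0488, without wild type 3. Without knockout 3 it was -1.10 (limma adjusted p = 0.0053).

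The other probe sets of Pdk1 were lower by less and were not called. The brightest, 1423748_at, read 1917.7, 1841.3 and 1615 in wild type and 1153.6, 1264, 1495.8 and 1209.4 in knockout, a log2 fold change of -0.48 ± 0.14 (limma adjusted p = 0.0890). For 1435836_at the wild type livers read 413.1, 666.3 and 631.5 and the knockout livers 271.6, 386.1, 366.6 and 312.8, at -0.73 ± 0.21 (limma adjusted p = 0.0784). In both probe sets the groups did not overlap, although knockout 3 for the former and wild type 1 for the latter lay nearest the other group. The dim probe set 1434974_at read 68.8 to 118 in knockout against 92.4 to 125 in wild type, which overlapped, at -0.24 ± 0.23. Averaged over its 4 probe sets, Pdk1 had a log2 fold change of -0.62 ± 0.14 and just missed the threshold (limma adjusted p = 0.0524 over 14142 genes and unnamed probe sets). Estimates for this gene symbol thus ranged from -1.02 to -0.24. Which of them reports the main transcript in liver was not tested.

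Pdk3 encodes another kinase of the family, also reported as responsive to HIF-1, and like Pdha1 it lies on chromosome X. Its probe set read 732.5, 829 and 752.9 in wild type livers and 528.3, 643.1, 486.2 and 557.9 in knockout livers. All knockout livers were lower, with knockout 2 nearest to wild type. The log2 fold change was -0.47 ± 0.15, with a 95% interval from -0.81 to -0.13, but the adjusted p was 0.11 with limma. It stayed between -0.54 and -0.41 without each array in turn, with -0.41 without knockout 3, and was called in none of those runs (lowest adjusted p = 0.0962).

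Pdk4 encodes the kinase that fasting, glucocorticoids and the fatty acid receptor PPAR alpha are known to induce. The wild type livers read 4059.3, 3144.4 and 3478.8, and the knockout livers 2056.8, 2026.7, 3125.6 and 5878.7. Knockout livers 1, 2 and 3 were below all wild type livers, knockout 3 only just, whereas knockout 4 was above all of them. The highest knockout liver had 2.90 times the intensity of the lowest, against 1.29 times among wild type livers. This spread of the knockout livers on the log2 scale, an SD of 0.72, was larger than that of 96.9% of tested probe sets, and the wild type SD larger than that of 50.2%. The log2 fold change was -0.26 ± 0.32 (limma adjusted p = 0.692), and its 95% interval, -0.97 to 0.46, leaves its direction unknown. Without knockout 4 it was -0.59 and still not called (limma adjusted p = 0.155).

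Pdk2 encodes the kinase regarded as the most widely expressed of the family and the main basal form in liver. Its probe set read 543.3, 1016.8 and 1043 in wild type and 892.2, 606.3, 784.8 and 897.5 in knockout. Wild type 1 was the lowest of the 7 arrays, and the groups overlapped. The log2 fold change of -0.08 ± 0.24 had a 95% interval from -0.62 to 0.46. Its sign turned without wild type 2, wild type 3 or knockout 2, to between 0.04 and 0.08. All 7 kinase probe sets tested thus had a lower mean in knockout, 4 of them from Pdk1, where 54.2% of all tested probe sets were lower.

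**Figure D1:**
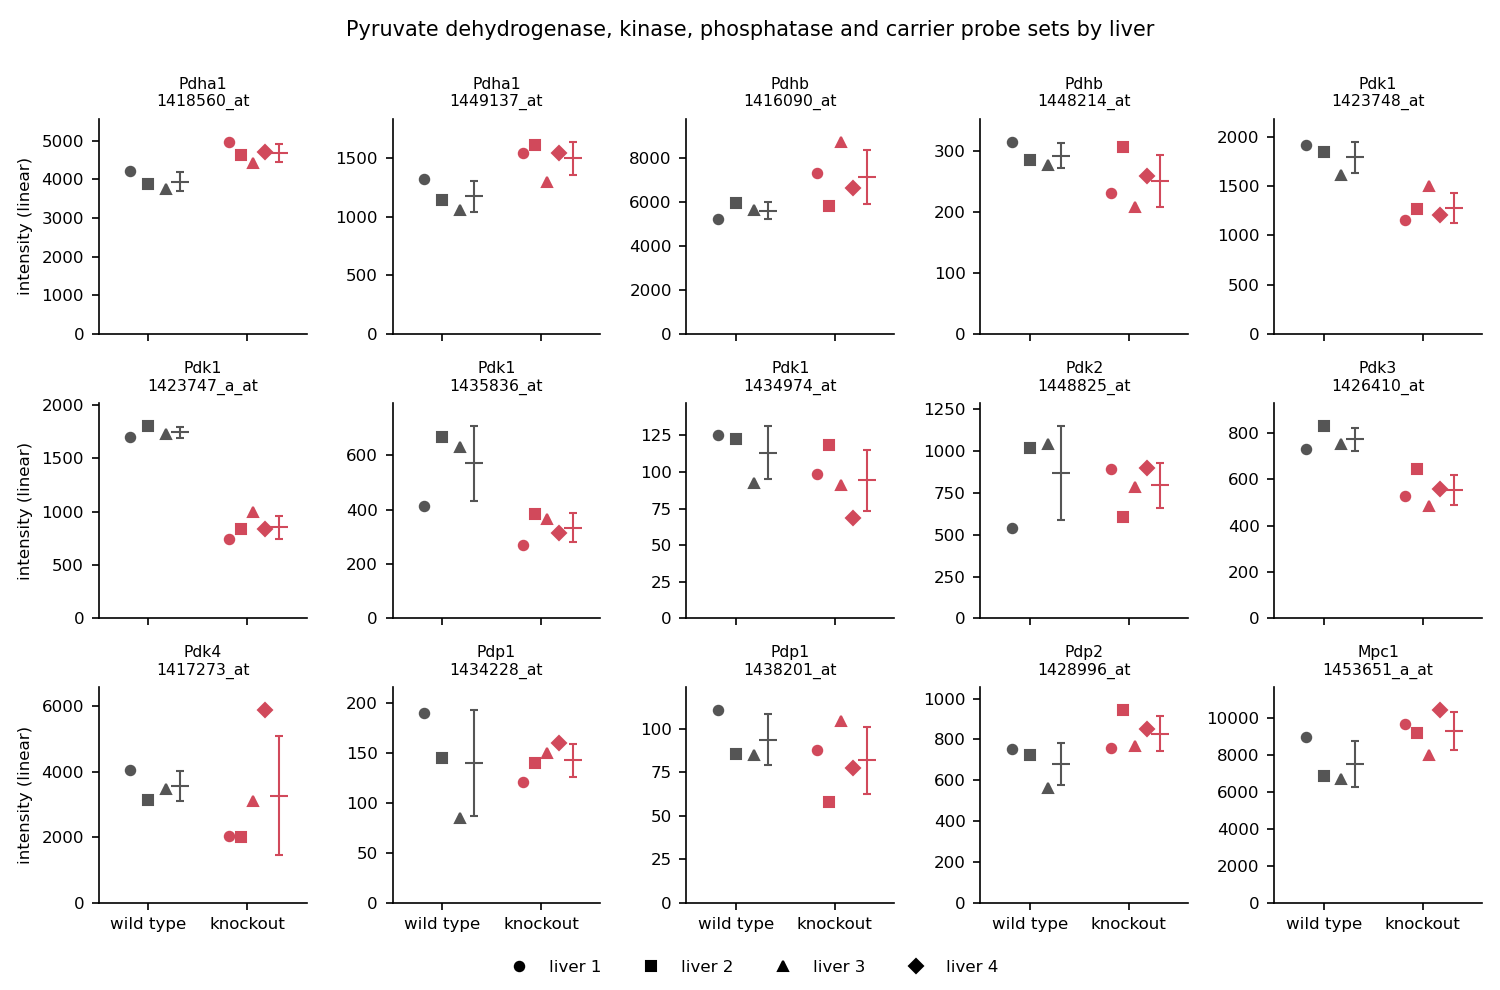
Intensity on a linear scale starting at 0 (y axis) of the 15 probe sets in each liver (points, 1 symbol per liver number within a group; the numbers do not pair livers), wild type in grey and knockout in red, with the group mean and SD beside the points. The groups separate in 3 of the 4 Pdk1 panels and in Pdk3, and the knockout livers of Pdk4 spread from 2026.7 to 5878.7.

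The E1 subunit genes encode the part of the complex that the kinases act on. Pdha1, the alpha subunit, read 4211, 3874.3 and 3739.1 in wild type and 4969.5, 4619.4, 4420.8 and 4707.5 in knockout by its brighter probe set. All knockout livers were higher. The difference was small, 3941 ± 243 against 4679 ± 228 (SD, n = 3 and 4), a log2 fold change of 0.25 ± 0.11 (limma adjusted p = 0.223). The other probe set of Pdha1 had 0.35 ± 0.14 (limma adjusted p = 0.194), with knockout 3, at 1294, inside the wild type range of 1060.6 to 1317.9.

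Pdhb, the beta subunit, gave opposite signs by its probe sets. The bright one read 5216.4, 5961.3 and 5638.9 in wild type and 7325.1, 5807.2, 8729.1 and 6648.3 in knockout, at 0.33 ± 0.14 (limma adjusted p = 0.212). Knockout 2 fell among the wild type livers and the others were higher. The dim one, at 276 to 315 in wild type and 208 to 306 in knockout, had -0.22 ± 0.18 (limma adjusted p = 0.512). Over the 7 arrays these probe sets ran opposite to each other, with a Pearson r of -0.97, whereas those of Pdha1 ran together at 0.94. Both correlations are descriptions of 7 arrays that include the group difference. Averaged over its probe sets, Pdhb had 0.06 ± 0.11.

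The phosphatases differed little. Pdp2, the insulin-sensitive form, read 753.3, 725.6 and 559.9 in wild type and 756.3, 941.9, 767 and 849.4 in knockout. The groups did not overlap, but knockout 1 exceeded wild type 1 by only a few units of intensity. Its log2 fold change of 0.29 ± 0.16 was not called (limma adjusted p = 0.337). Pdp1, the calcium-stimulated form, was dim. Its tested probe set read 189.7, 144.5 and 84.9 in wild type and 121.1 to 159.4 in knockout, at 0.08 ± 0.25, and the sign turned without wild type 3, to -0.20. The other Pdp1 probe set lay under the expression filter, at 85 to 110 in wild type and 58.1 to 104 in knockout (exact two-sided permutation p = 0.4; the smallest that 35 splits of 7 arrays allow is 0.0286).

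Mpc1 encodes a subunit of the carrier that brings pyruvate across the inner mitochondrial membrane. The wild type livers read 8953.9, 6840 and 6697.4 and the knockout livers 9649, 9147, 7976.3 and 10387.1. Wild type 1 lay among the knockout livers, above knockout 3. The log2 fold change was 0.32 ± 0.14 (limma adjusted p = 0.216), between 0.24 and 0.45 without each array in turn.

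**Figure D2:**
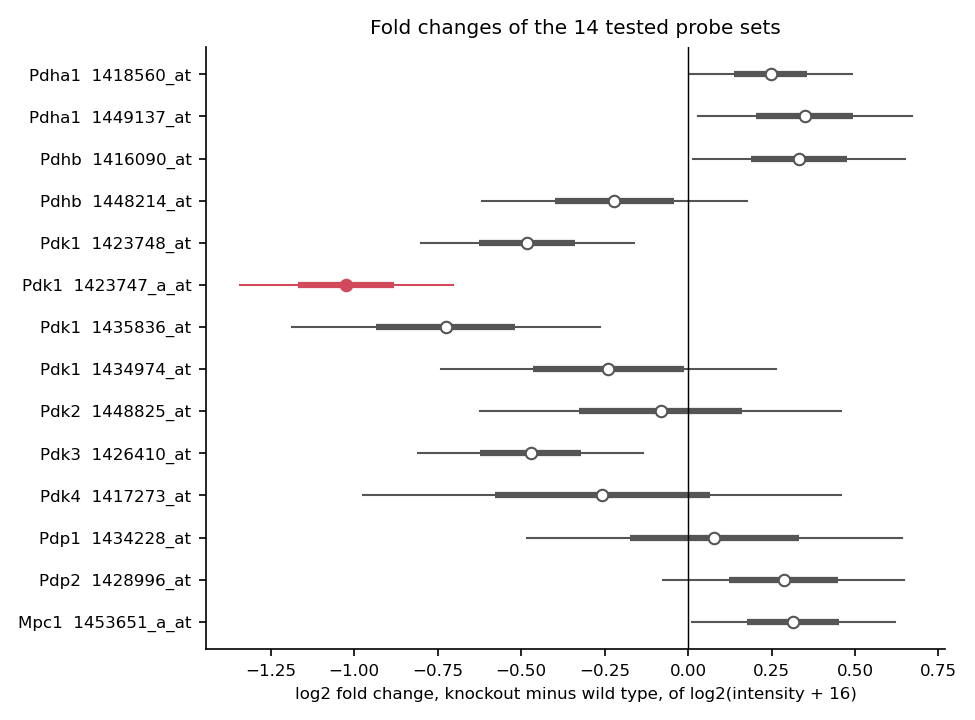
Log2 fold change, knockout minus wild type (x axis), of the 14 tested probe sets (y axis); thick bars are standard errors, thin lines 95% intervals from limma, and the filled red point is the only one called. Kinase probe sets lie left of 0, and those of the E1 subunits (but for the dim one of Pdhb), the phosphatases and Mpc1 lie right of it.

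Across all members, 1 of 14 tested probe sets was called, which is near the 4.24% of all probe sets. The groups did not overlap in 6 of the 14, against 21.1% of all tested probe sets: 4 with knockout below (11.8% of all), namely 3 of Pdk1 and 1 of Pdk3, and 2 with knockout above (9.4% of all), of Pdha1 and Pdp2. An unadjusted limma p under 0.05 was reached by 8 of the 14, 4 in each direction, against 21.7% of all. Probe sets of 1 gene are not independent of each other, so these counts describe fewer than 14 separate transcripts. Whether the change of Pdk1 differed from that of the other kinases was not tested.

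**Figure D3:**
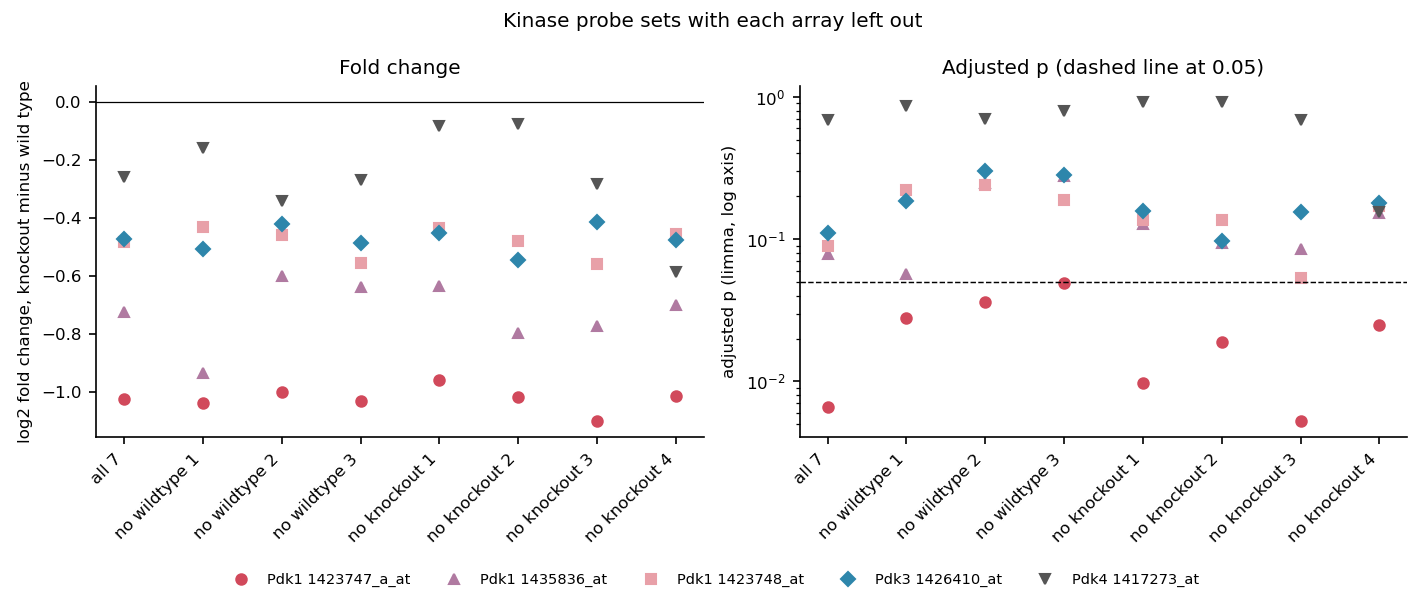
Log2 fold change (left) and limma adjusted p on a log axis (right, dashed line at 0.05) of 5 kinase probe sets with all 7 arrays and without each array in turn. The Pdk1 probe set 1423747_a_at stays near -1 and under the line in all 8 fits, and Pdk4 moves to -0.59 without knockout 4.

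Of 11 tested genes that complete the complex or supply its cofactors, 0 were called by limma. Counts in this and the following lists stand against 2.35% of all tested probe sets called higher and 1.89% called lower. Those shares include dim probe sets, which are called less often, whereas the lists use the brightest probe set of each gene. Under a stricter filter, which kept only brighter probe sets, 522 of 11259 were called higher and 410 lower. Of the 64 tested list genes, 55 passed that filter, so the shares for all tested probe sets are low for these lists. Pdhx, which binds the E3 subunit to the core, read 612 ± 84.9 in wild type and 822 ± 89.9 in knockout, at 0.42 ± 0.16 (limma adjusted p = 0.166), and its groups did not overlap. Dlat, the E2 acetyltransferase, was at 0.41 ± 0.16 by its brightest probe set and -0.08 by its dimmest. Of the 11 genes 8 were higher and 3 lower, with a median log2 fold change of 0.12 against -0.03 over all tested probe sets.

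Of 15 tested genes that make or use pyruvate, 2 rose and 1 fell, with a median log2 fold change of -0.01. Me1, the cytosolic malic enzyme that yields pyruvate and NADPH, rose from 294 ± 24.7 to 955 ± 251 (SD, n = 3 and 4; log2 fold change 1.61 ± 0.21, limma adjusted p = 0.0060), and it was called in each of the 7 fits without 1 array. Slc16a7, a monocarboxylate transporter with high affinity for pyruvate, rose from 964 ± 114 to 1876.5 ± 238 (0.95 ± 0.15, limma adjusted p = 0.0124). Without wild type 3 its log2 fold change was 0.94, about the same, but it was not called (limma adjusted p = 0.0745). Gpt2, the mitochondrial alanine aminotransferase, which makes pyruvate from alanine, fell from 1732 ± 310 to 759 ± 191 (-1.19 ± 0.21, limma adjusted p = 0.0175). This call was lost without wild type 2, wild type 3 or knockout 4 (highest adjusted p = 0.102). Of the other Gpt2 probe sets, 1 was called at -1.03, and those at -0.52 and -0.41 were not called. The listed enzymes on either side of the complex, lactate dehydrogenase Ldha at -0.12 and pyruvate carboxylase Pcx at 0.23, were not called.

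Among 8 tested genes of the related keto acid dehydrogenase complexes, which share the design of pyruvate dehydrogenase, 1 rose and 0 fell, with a median of 0.38. Bckdhb, the E1 beta subunit for branched-chain keto acids, rose from 3456 ± 490 to 6203 ± 1082 (0.83 ± 0.16, limma adjusted p = 0.0231). It was not called without wild type 2, wild type 3 or knockout 4 (highest adjusted p = 0.121).

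Of 14 tested regulators of Pdk transcription 1 fell and 0 rose, with a median of -0.01. The nuclear receptor Esrrg, known to drive Pdk4, read 539.5, 408.4 and 318.7 in wild type and 64.2, 24.2, 109.7 and 26.6 in knockout (-2.73 ± 0.39, limma adjusted p = 0.0070). The knockout mean of 56.2 lay under every array's median, so the probe set passed the filter through its wild type values and was not tested under a stricter filter. The size of the difference depends on the offset added before the log, at -3.13 with 1 and -2.05 with 64, and it was called with both. Knockout 4, where Pdk4 was highest, read 26.6 for Esrrg, and values this dim do not rank the livers. Whether Esrrg bears on the level of Pdk4 was not tested. Of its other probe sets, 1 was at -1.74 ± 0.50 and not called, and 1 lay under the filter. Ppara at 0.08, Foxo1 at -0.38, Ppargc1a at -0.57 and Hif1a at -0.09 were not called.

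Of 7 tested genes of fasting and of the insulin-restrained FOXO factors, which Pdk4 belongs with by its known control, limma called 0, and the median was -0.20. Txnip, a glucose-responsive regulator of glucose uptake, read 15403.8, 9604.6 and 13425.5 in wild type and 3695.8, 5161.7, 4599.6 and 12417.7 in knockout, so knockout 4 stood among the wild type livers and the other knockout livers below them. Its log2 fold change was -1.13 ± 0.35 (limma adjusted p = 0.100), and -1.50 without knockout 4, where it was called (limma adjusted p = 0.0143). Txnip was called in no other fit without 1 array (highest limma adjusted p = 0.274). Cpt1a, the enzyme that admits fatty acids to mitochondria for oxidation, read 7034.1, 7550.9 and 7903.3 in wild type and 12307.4, 9983.1, 4850.1 and 13291.5 in knockout. Knockout 3 was below all wild type livers and the other knockout livers above them. Its log2 fold change was 0.33 ± 0.29 (limma adjusted p = 0.547), and 0.65 without knockout 3, where it was called (limma adjusted p = 0.0232). No other fit without 1 array called Cpt1a. Igfbp1 was at -0.20 ± 0.09 (limma adjusted p = 0.224). Fgf21, under the filter in the main fit, read 7.8 to 16.8 in wild type and 50.7 to 119.5 in knockout, and was called in the fit of all probe sets (limma adjusted p = 0.0216).

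Of 9 tested HIF-1 targets 3 fell and 0 rose, with a median of -0.32. Those called were Slc2a1, the glucose transporter of red cells and barriers, at -1.01 ± 0.24, the mitophagy gene Bnip3 at -0.86 ± 0.19 and the vessel growth factor Vegfa at -0.70 ± 0.16 (limma adjusted p = 0.0442, 0.0397 and 0.0442). The other Vegfa probe set was at 0.00. All 3 calls were lost with arrays scaled to equal medians, at adjusted p from 0.0511 to 0.0712, and in most fits without 1 array. Slc2a1 kept its call in 2 of 7 such fits, Bnip3 and Vegfa in 1 of 7 each. The other 6 tested targets were not called. Of these, Ndrg1 at 0.64 and Pfkfb3 at 0.42 had higher means in knockout, and Egln3 at -0.19, Hk2 at -0.34, P4ha1 at -0.03 and P4ha2 at -0.32 had lower means.

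**Figure D4:**
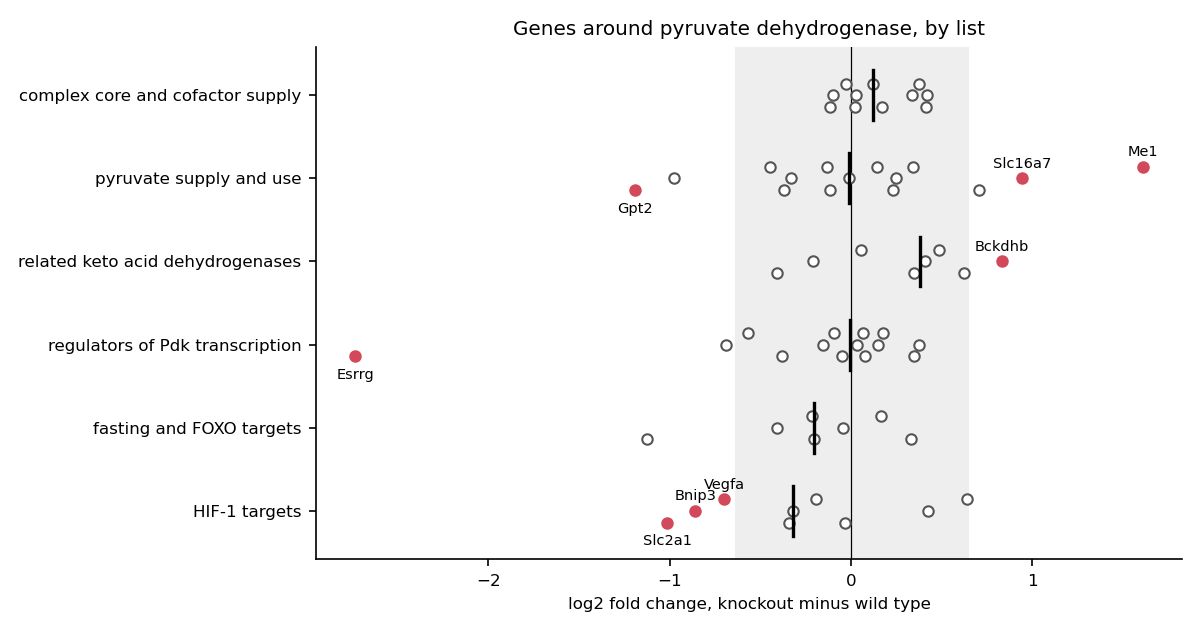
Log2 fold change, knockout minus wild type (x axis), of 64 tested genes by list (y axis), from the brightest probe set of each; red filled points are called, black bars are list medians, and the grey band spans the 5th to 95th percentile of all tested probe sets, -0.63 to 0.65. Most genes lie inside the band and the 8 called genes outside it, and the place of Esrrg, dim in all knockout livers, moves with the offset from -3.13 to -2.05.

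Cell type markers moved with genotype in places. The summed intensity of 9 measured erythroid markers was 69690 to 79091 in wild type and 56721 to 61477 in knockout. Of these markers 8 of 8 tested were lower, although Klf1 was only at -0.03. Those called were 3, Slc4a1, Rhag and Trim10, all near the threshold (limma adjusted p = 0.0412, 0.0443 and 0.0454). None of these was called in the fit without a filter (limma adjusted p = 0.132, 0.0883 and 0.0805). Over all tested probe sets 54.2% were lower and 1.89% were called lower. The only named probe set of the defining alpha globin gene Hba-a1 read 6.8 to 82.3 in all livers and so carried no usable signal. Summed endothelial markers ran from 12709 to 15213 in wild type and 7198 to 12648.5 in knockout, with 5 of 6 genes lower and 0 called by limma. The other gene, Tek, was higher in every knockout liver than in every wild type liver, at 0.61 ± 0.17 (limma adjusted p = 0.0731). The sum of 8 hepatocyte markers overlapped, at 261308 to 295229 and 247652 to 320811. Sums of neutrophil, macrophage, megakaryocyte, lymphocyte, stellate, muscle and pancreatic markers overlapped too, although the pancreatic sum is mostly Cela1 and the other 2 pancreatic markers were high in knockout 3 alone. In bulk liver, fewer cells of a type and less RNA per cell cannot be told apart. The part of red cell precursors or endothelium in the values of Pdk1, Pdk3, Slc2a1 or Vegfa was not tested.

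**Figure D5:**
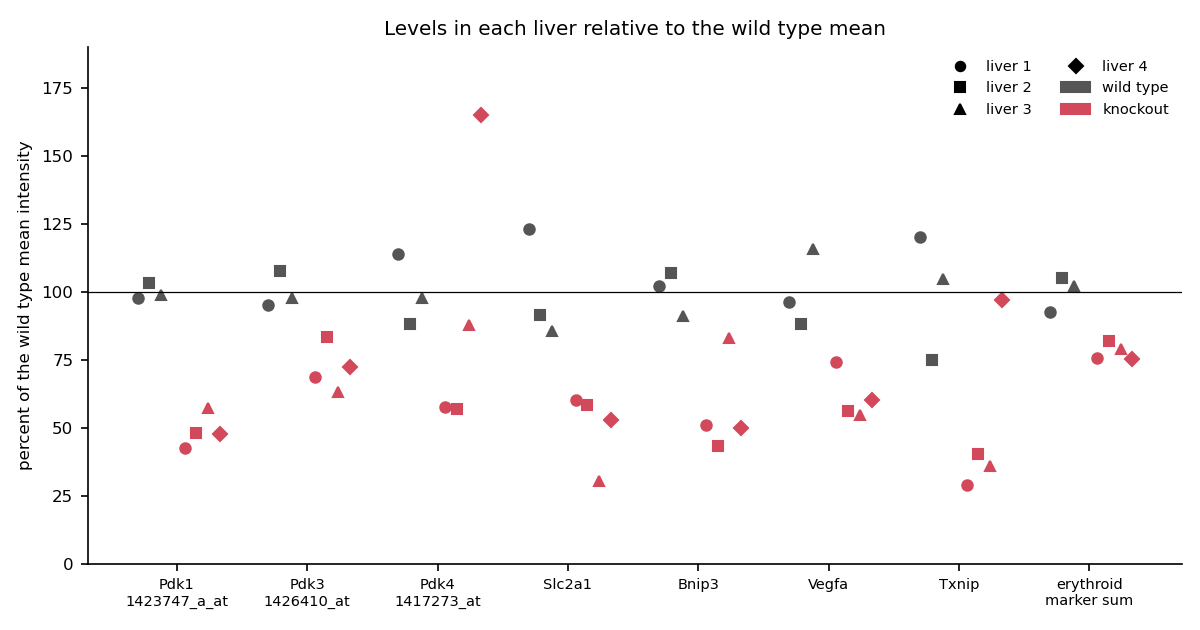
Intensity in each liver as a percent of the wild type mean (y axis, from 0) for 3 kinase probe sets, 4 genes of the HIF-1 and fasting lists and the erythroid marker sum (x axis); symbols are liver numbers, grey wild type and red knockout. Knockout livers lie at 42.6 to 57.4% for the called Pdk1 probe set 1423747_a_at and at 75.4 to 81.7% for the erythroid sum. The other Pdk1 probe sets, not shown, were at 60.5, 71.6 and 84.7% of wild type by the fitted fold change. Knockout 4 stands apart from the other knockout livers for Pdk4 and Txnip.

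The genes most like Pdk4 over the 7 arrays, by Pearson r of log2 values, were Camkk2 (0.96), D230025D16Rik (0.96), Rbms1 (0.95) and Zfp740 (0.93). All 4 were highest in knockout 4, and none was called between groups. Most like the brightest Pdk1 probe set were Gdf3 (0.99), Rnf26 (0.98), the DNA helicase Blm (0.98) and the replication origin protein Orc6 (0.98). All of these were lower in every knockout liver than in every wild type liver, and Gdf3 at -2.24 and Blm at -0.81 were called. Gdf3 read only 47.6 to 171.8 in knockout, where array medians were 92.5 to 108, so the size of its difference is uncertain. With 7 arrays in 2 groups, such correlations largely restate the group difference or the array that stands apart.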

How the data were processed

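Liver RNA of 7 pups was measured on 1 array each. Per the submitters' processing notes GCOS made the deposited intensities, without a version, and neither labels nor files name the summary of probes. The trimmed mean of the deposited values, leaving out 2% at each end, was 500.003 on every array, so a change of total RNA cannot be seen. Array medians of log2(intensity + 16) ran from 6.76 to 6.95, only just within the 0.2 limit, so no further scaling was applied. The lowest medians were those of knockout 4 and knockout 3. Of 45101 probe sets, 64 controls were left out and 22518, with a mean log2 value above the median, were tested with limma 3.58.1 (eBayes with a trend) in R 4.3.3, a step tested on simulated data. Plots used matplotlib 3.10.9. Symbols are the platform annotation's (34958 probe sets with 1 symbol, 932 with several, 9211 with none). By gene ID 34754 were found in RefSeq and 0 symbols needed an update. Arrays correlated at r from 0.930 to 0.985, and 0 pairs were identical. The number of arrays limits precision.

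The genes and lists were chosen with earlier results of these data known. Text names all members, up to 4 called genes a list by p (otherwise up to 2 of smallest p), and the 4 genes most like Pdk4 and most like the member of smallest p. Other genes named were chosen after their values were seen. Lists are read by each gene's brightest probe set. Alternatives covered offset, scaling, filter, variance model, replicate numbers as a block, probe set averaging and each array left out.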

Additional observations from a re-analysis of the deposited data

Results flagged for a closer look

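In 4 of 38 probe sets whose values are described, 1 knockout liver lay far from the other 3, by a gap to its nearest neighbour above Dixon's 95% limit for 4 samples. Chance sets apart about 1 in 20 groups of unselected values. These probe sets were partly selected: 4 for likeness to Pdk4, and of the cell type markers only the pancreatic ones were examined. That rate therefore cannot judge the count. Txnip read 12417.7 in knockout 4 against 3695.8 to 5161.7 in the other knockout livers. D230025D16Rik, named for its likeness to Pdk4, read 2441.1 in knockout 4 against 1199.1 to 1392.7. Knockout 3 lay far out in the exocrine pancreas markers Cpa1, at 497.9 against 5.8 to 8.8, and Prss2, at 569 against 10.8 to 47.2. For Pdk4 itself, at 5878.7 in knockout 4, the gap was 0.71 of the range and under that limit.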

How the results depend on the processing

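The call of Pdk1 by 1423747_a_at was kept in all 15 alternatives that tested that probe set, with log2 fold changes from -1.10 to -0.96. When the probe sets of a gene were averaged, 0 of 9 member genes were called, against 1 of 14 probe sets. Over 204 member values under alternatives, 200 kept direction and side of the threshold and 4 turned sign: Pdk2 was at 0.059, 0.077 and 0.040 without wild type 2, wild type 3 and knockout 2, and Pdp1 at -0.20 without wild type 3. None of these was called either way, and without 1 array Pdk2 ran from -0.38 to 0.077 and Pdp1 from -0.20 to 0.31. The count over all probe sets, 955, was 473 without a filter, 584 without a trend, 351 with the replicate block and 127 to 1006 without 1 array. Genes called in the pathway lists, 8, were 5 with equal medians, 5 without a trend, 5 with the replicate block, 4 with averaged probe sets and 2 to 8 without 1 array. The cause of these changes was not tested.

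The titles number the livers, and nothing says that equal numbers share a litter. Deviations of same-numbered livers from their group means correlated at 0.09, -0.06 and 0.06, so the numbers were not taken as pairs. With the replicate block, which leaves knockout 4 without weight, Pdk1 was at -1.02 (limma adjusted p = 0.0397) and Pdk4 at -0.59. In 2 of the 7 fits without 1 array the dimmest Pdk1 probe set lay under the filter and was not tested. The difference of the Pdp1 probe set under the filter, -0.18, kept its sign under other offsets and scalings (exact permutation p from 0.4 to 0.857).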
